A study of Homo sapiens with 8 samples.

Results

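Immunoglobulin constant-region genes encode the part of an antibody chain that sets its class, and their signal was compared between 2 human B-cell lymphoma lines and 2 ligands. The list held 9 genes: IGHM, IGHD, IGHG1, IGHG3, IGHA1 and IGHE for the heavy chains, IGKC for the kappa light chain, and IGLC1 and IGLL5 at the lambda locus. A gene was described through every array row whose annotation gave its symbol alone. This rule found 3 of the 9 genes, IGHD, IGHA1 and IGHE, with 1 row each, among 36176 rows that carry a single symbol and 138745 rows in all. IGKC, IGLC1 and IGLL5 stand only in 2 rows that list several symbols, and no row of the annotation lists IGHM, IGHG1 or IGHG3, so these 6 genes are not analysed here. Of the other constant-region genes, 8 had a row of their own and are described beside the 3: IGHG4, IGHA2, the pseudogene IGHEP1, and the lambda genes IGLC3 to IGLC7.

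The arrays were of HBL-1 cells with APRIL, HBL-1 cells with EDA, BJAB cells with APRIL and BJAB cells with EDA, with 2 arrays a group and 8 in all. Each ligand was given for 6 h at 1 µg/ml, APRIL as the purified recombinant protein and EDA as its control, and both lines grew in RPMI1640 with 10% FCS. HBL-1 was derived from an activated B-cell-like diffuse large B-cell lymphoma, and BJAB is a B-lymphoma line commonly used as germinal-centre-like. APRIL binds the receptors BCMA and TACI, and EDA, a ligand of the same family, binds other receptors. No array is of cells without a ligand, and APRIL is therefore read only against EDA. Each tumour type is represented by a single line. Nothing in the labels states that paired arrays are independent cultures, and the p-values may thus rest on technical spread.

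A B cell joins a rearranged variable segment to a constant region. A naive B cell makes IgM and IgD together, by splicing 1 long transcript to either the mu or the delta exons, and class switching later deletes the DNA between the variable segment and a gamma, epsilon or alpha gene. Unrearranged or switch-ready constant genes can also give germline transcripts that make no antibody. Each mature B cell uses either kappa or lambda light chains. APRIL is known as a survival factor of plasma cells and as a ligand that promotes switching to IgA in normal B cells. In the RefSeq gene table the heavy-chain genes lie on chromosome 14 with IGHD next to IGHM, IGKC lies on chromosome 2 and the lambda genes lie on chromosome 22. Genes of 1 class are close in sequence, so a row may also take up signal from a near copy, and this was not tested.

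The arrays correlated at 0.989 to 0.993 between replicates and 0.942 to 0.946 between lines over the 36176 rows. HBL-1 APRIL replicate 2 had the highest median level (5.71, against 5.54 to 5.61 on the other 7 arrays) and the highest median of the background control rows (3.77, against 3.57 to 3.65). A row was taken to be within the background range on an array where it lay at or below the 95th percentile of the 23 background control rows, which was 7.80 to 8.25 on the log2 scale. Another 612 rows, named as negative controls, had a 95th percentile of 8.04 to 8.43. The label of B-cell lines was checked on marker genes. Of 8 measured B-cell markers, 7 were above the background range on all 8 arrays, with CD79A and CD79B, the signalling partners of surface immunoglobulin, at group means of 15.45 to 16.86. Of 9 T-cell and NK-cell markers, 7 were within the range on every array, as were 8 of 9 myeloid markers.

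IGHD, the delta heavy chain of surface IgD, was lower in HBL-1 than in BJAB with either ligand. Its log2 signal was 7.39 and 7.94 in HBL-1 with APRIL, 7.31 and 7.28 in HBL-1 with EDA, 9.97 and 9.92 in BJAB with APRIL, and 10.00 and 9.74 in BJAB with EDA. Within each ligand both HBL-1 arrays lay below both BJAB arrays, as in 24.0% of all rows under APRIL and 30.6% under EDA. All 4 HBL-1 arrays lay within the background range, and all 4 BJAB arrays lay above that range. Under APRIL the log2 difference, HBL-1 minus BJAB, was -2.28 (SE 0.24, n = 2 arrays per line, limma adjusted p = 9.02e-05). Under EDA, on the other 4 arrays, it was -2.57 (SE 0.24, limma adjusted p = 3.65e-05). Since the HBL-1 level has only a bound, the signal in HBL-1 was at least 3.62-fold lower under APRIL and at least 3.89-fold lower under EDA, measured against the background range. Without HBL-1 APRIL replicate 2 the difference under APRIL was -2.55. In bulk RNA, fewer cells with a transcript and less RNA per cell cannot be told apart.

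IGHA1, the alpha-1 heavy chain of the main serum IgA subclass, was also lower in HBL-1, at levels near or within the background range. It had 5.68 and 5.33 in HBL-1 with APRIL, 5.41 and 5.80 in HBL-1 with EDA, 8.36 and 7.53 in BJAB with APRIL, and 7.37 and 6.55 in BJAB with EDA. Within each ligand both HBL-1 arrays lay below both BJAB arrays, but only BJAB APRIL replicate 1 exceeded the background range. The log2 difference, HBL-1 minus BJAB, was -2.44 under APRIL (SE 0.34, limma adjusted p = 0.000715). Under EDA it was -1.36 (SE 0.34, limma adjusted p = 0.0223). No fold is given, because both lines were within the background range under EDA and the bound under APRIL fell below 1. The EDA call rests on single arrays: without BJAB EDA replicate 1 the difference was -0.95 (limma adjusted p = 0.186), and it also missed the threshold without HBL-1 EDA replicate 1 (-1.16, adjusted p = 0.134) or HBL-1 EDA replicate 2 (-1.56, adjusted p = 0.0505). The call under APRIL was kept without any 1 of the 8 arrays, with a difference of -2.85 to -2.03.

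IGHE, the epsilon heavy chain of IgE, was within the background range on all 8 arrays and did not pass in any comparison. It had 3.40 and 3.34 in HBL-1 with APRIL, 3.23 and 3.21 in HBL-1 with EDA, 3.19 and 3.31 in BJAB with APRIL, and 3.13 and 3.34 in BJAB with EDA. These values lay below the median of the background control rows of their array, and the 4 groups spanned only 0.15 between their means. The difference between the lines was 0.12 under APRIL (95% confidence interval -0.33 to 0.57) and -0.02 under EDA (-0.46 to 0.43).

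**Figure D1:**
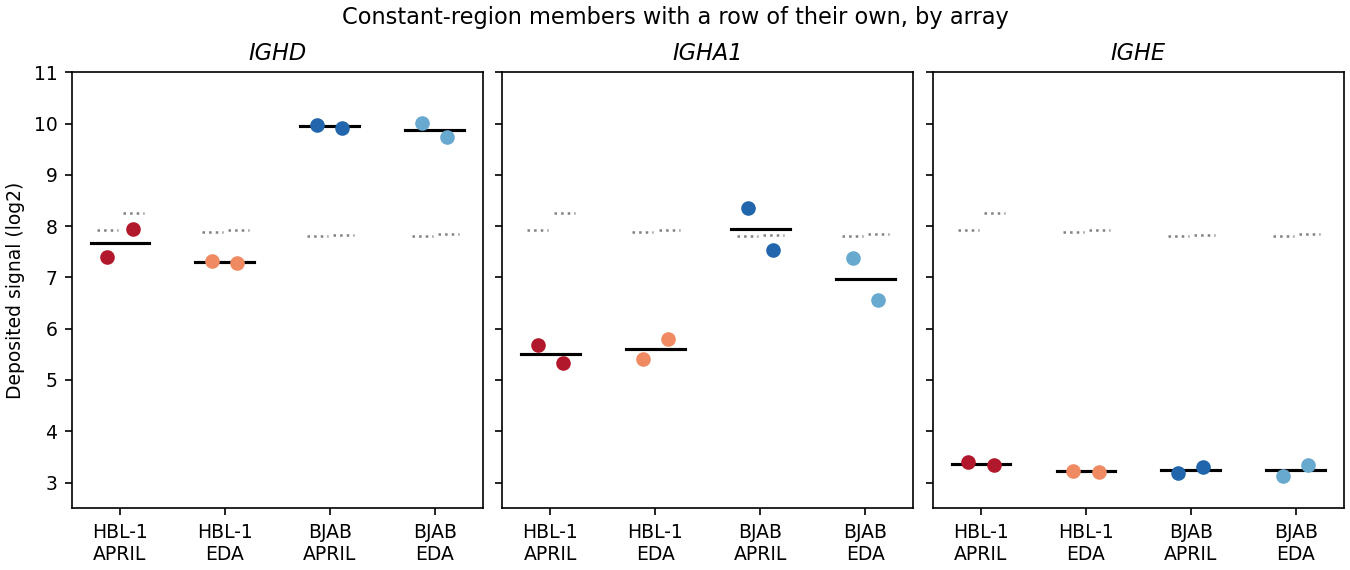
Deposited log2 signal (vertical axis) of IGHD, IGHA1 and IGHE on the 8 arrays, grouped by line and ligand. Points are arrays, black lines are means of 2 arrays, and dotted lines mark the 95th percentile of the background control rows of each array. IGHD in BJAB, near 9.9, is the only row above the dotted lines on both arrays of a group.

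With 3 rows, 2 passed as lower in HBL-1 under each ligand, beside 8.36% of all rows that passed in that direction under APRIL and 9.98% under EDA (16.1% and 16.0% in either direction, with 7.76% and 6.01% higher in HBL-1). Within a ligand, both HBL-1 arrays lay below both BJAB arrays in 24.0% of all rows under APRIL and 30.6% under EDA. They lay above both BJAB arrays in 28.1% and 24.0%, which gives 52.1% and 54.6% in either direction. The means under APRIL and under EDA come from different arrays, but both tests share the spread estimated from all 8 arrays. Fitted on the 4 arrays of each comparison alone, IGHD and IGHA1 passed under APRIL (limma adjusted p = 0.000484 and 0.000842) and under EDA (0.000299 and 0.0282). From low to high, mean IGHD signal ran from HBL-1 with EDA (7.30) and HBL-1 with APRIL (7.67) to BJAB with EDA (9.87) and BJAB with APRIL (9.94), and within a line the ligand groups did not differ past the threshold. Mean IGHA1 signal ran from HBL-1 with APRIL (5.50) and HBL-1 with EDA (5.60) to BJAB with EDA (6.96) and BJAB with APRIL (7.95). The HBL-1 groups overlapped in IGHA1 and the BJAB groups overlapped in IGHD.

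**Figure D2:**
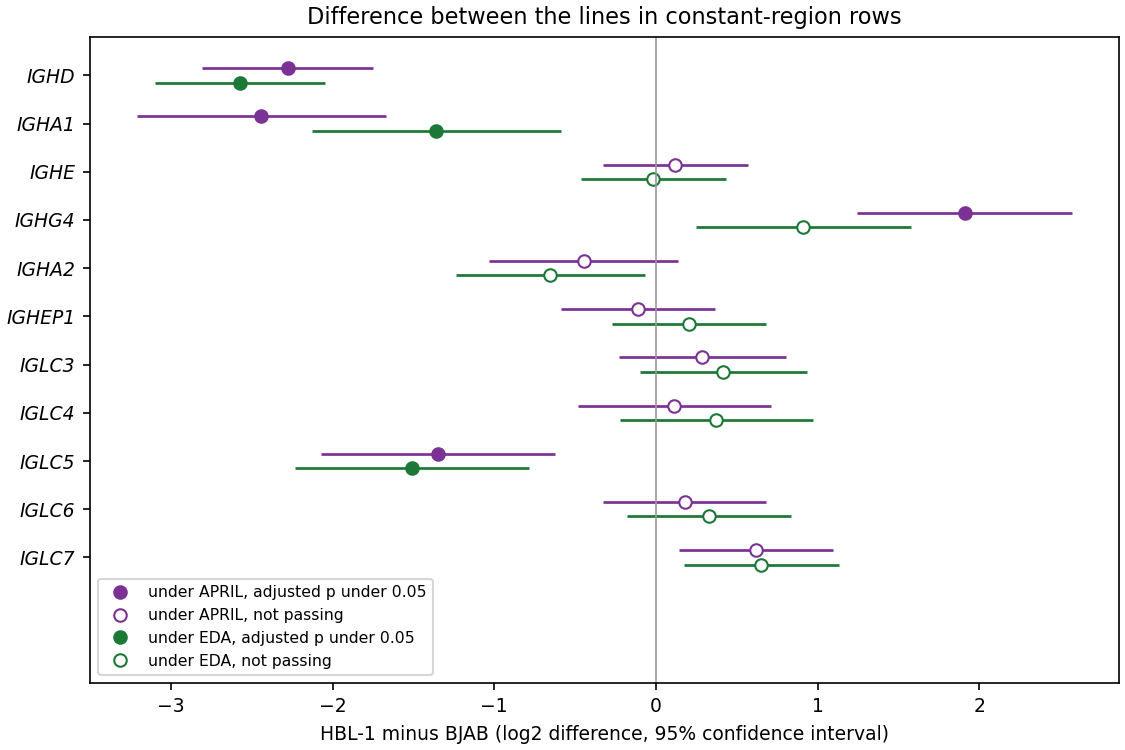
HBL-1 minus BJAB in log2 units (horizontal axis) for the 3 genes of the list and the 8 other constant-region rows, under APRIL and under EDA, with 95% confidence intervals. Filled points passed at a limma adjusted p under 0.05. The filled points are IGHD, IGHA1 and IGLC5, left of 0 under both ligands, and IGHG4, right of 0 under APRIL.

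The balance of the 2 heavy chains was read as the difference of their rows on 1 array, which has meaning only when it is compared between arrays. IGHD minus IGHA1 was 1.71 and 2.61 in HBL-1 with APRIL, 1.90 and 1.48 in HBL-1 with EDA, 1.61 and 2.38 in BJAB with APRIL, and 2.63 and 3.19 in BJAB with EDA. Under APRIL the arrays of the lines overlapped. Under EDA both HBL-1 arrays lay below both BJAB arrays, with means of 1.69 ± 0.30 in HBL-1 and 2.91 ± 0.39 in BJAB (SD, n = 2 each). No test was made of this balance. Every HBL-1 value behind it lay within the background range, as did IGHA1 on both BJAB arrays with EDA. Under EDA only IGHD in BJAB lay above that range, so the separation is not read as a change of balance. A kappa to lambda balance was not formed, because IGKC has no row of its own.

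Of the other heavy-chain rows, IGHG4 was higher in HBL-1 under APRIL, and IGHA2 and IGHEP1 did not pass. IGHG4, the gamma-4 heavy chain, had 7.02 and 6.47 in HBL-1 with APRIL, 6.48 and 6.23 in HBL-1 with EDA, 5.22 and 4.46 in BJAB with APRIL, and 5.58 and 5.31 in BJAB with EDA. All 8 values were within the background range. Within each ligand both HBL-1 arrays lay above both BJAB arrays, as in 28.1% of all rows under APRIL and 24.0% under EDA. The log2 difference was 1.91 under APRIL (SE 0.30, limma adjusted p = 0.00136) and 0.91 under EDA (SE 0.30, limma adjusted p = 0.0688), so it passed under APRIL and not under EDA. It did pass under EDA in 5 of the alternatives, namely array weights, only the 4 arrays of the comparison, a replicate block, and without either BJAB APRIL array (adjusted p = 0.0249 to 0.0466), and the change of the line difference with ligand did not pass (1.00, adjusted p = 0.867). IGHA2, the alpha-2 heavy chain, was within the background range at 4.39 to 4.65 in HBL-1 and 4.82 to 5.54 in BJAB. Its difference was -0.45 under APRIL and -0.65 under EDA, and neither passed (adjusted p = 0.326 and 0.141). Under EDA the IGHA2 difference was -1.01 without BJAB EDA replicate 2, where it passed (limma adjusted p = 0.046), and ran to -0.29 with other arrays left out. The epsilon pseudogene IGHEP1 lay between 4.52 and 4.92 on all arrays.

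Among the lambda rows, IGLC3 and IGLC7 did not pass between the lines. IGLC3, a lambda constant gene, had 14.23 and 14.34 in HBL-1 with APRIL, 14.25 and 13.79 in HBL-1 with EDA, 14.15 and 13.84 in BJAB with APRIL, and 13.62 and 13.59 in BJAB with EDA. It lay above the background range on all 8 arrays, and the line difference was 0.29 under APRIL (95% confidence interval -0.23 to 0.80) and 0.42 under EDA (-0.10 to 0.93). IGLC7, also annotated as a constant region rather than a pseudogene, had a difference of 0.62 under APRIL (adjusted p = 0.0832) and 0.65 under EDA (adjusted p = 0.0698), and ran from 8.92 to 9.34 in HBL-1 and from 8.26 to 8.67 in BJAB. IGLC7 passed under EDA after another quantile normalization (0.88, adjusted p = 0.0338) after cyclic loess (0.83, adjusted p = 0.0386) and with array weights (adjusted p = 0.0437), and under both ligands when only rows above the background range were tested (adjusted p = 0.0234 under APRIL and 0.0182 under EDA).

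IGLC5, annotated as a lambda pseudogene, was the lambda row that differed between the lines. It had 7.92 and 7.76 in HBL-1 with APRIL, 6.93 and 7.73 in HBL-1 with EDA, 9.11 and 9.26 in BJAB with APRIL, and 9.24 and 8.44 in BJAB with EDA. All 4 HBL-1 arrays lay within the background range. Within each ligand both HBL-1 arrays lay below both BJAB arrays, as in 24.0% of all rows under APRIL and 30.6% under EDA. The log2 difference was -1.35 under APRIL (limma adjusted p = 0.0173) and -1.51 under EDA (limma adjusted p = 0.00925). Against the background range this is at least 2.14-fold lower in HBL-1 under APRIL and at least 1.91-fold lower under EDA. The call under APRIL was lost without any 1 of the 4 APRIL arrays (adjusted p = 0.0611 to 0.0957) and when all rows that are not controls were tested (0.0545), and the call under EDA was lost without HBL-1 EDA replicate 1 or BJAB EDA replicate 1 (0.0779 and 0.0892). The pseudogenes IGLC4, within the background range at 4.92 to 5.82, and IGLC6, above it at 8.28 to 9.04, did not pass.

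**Figure D3:**
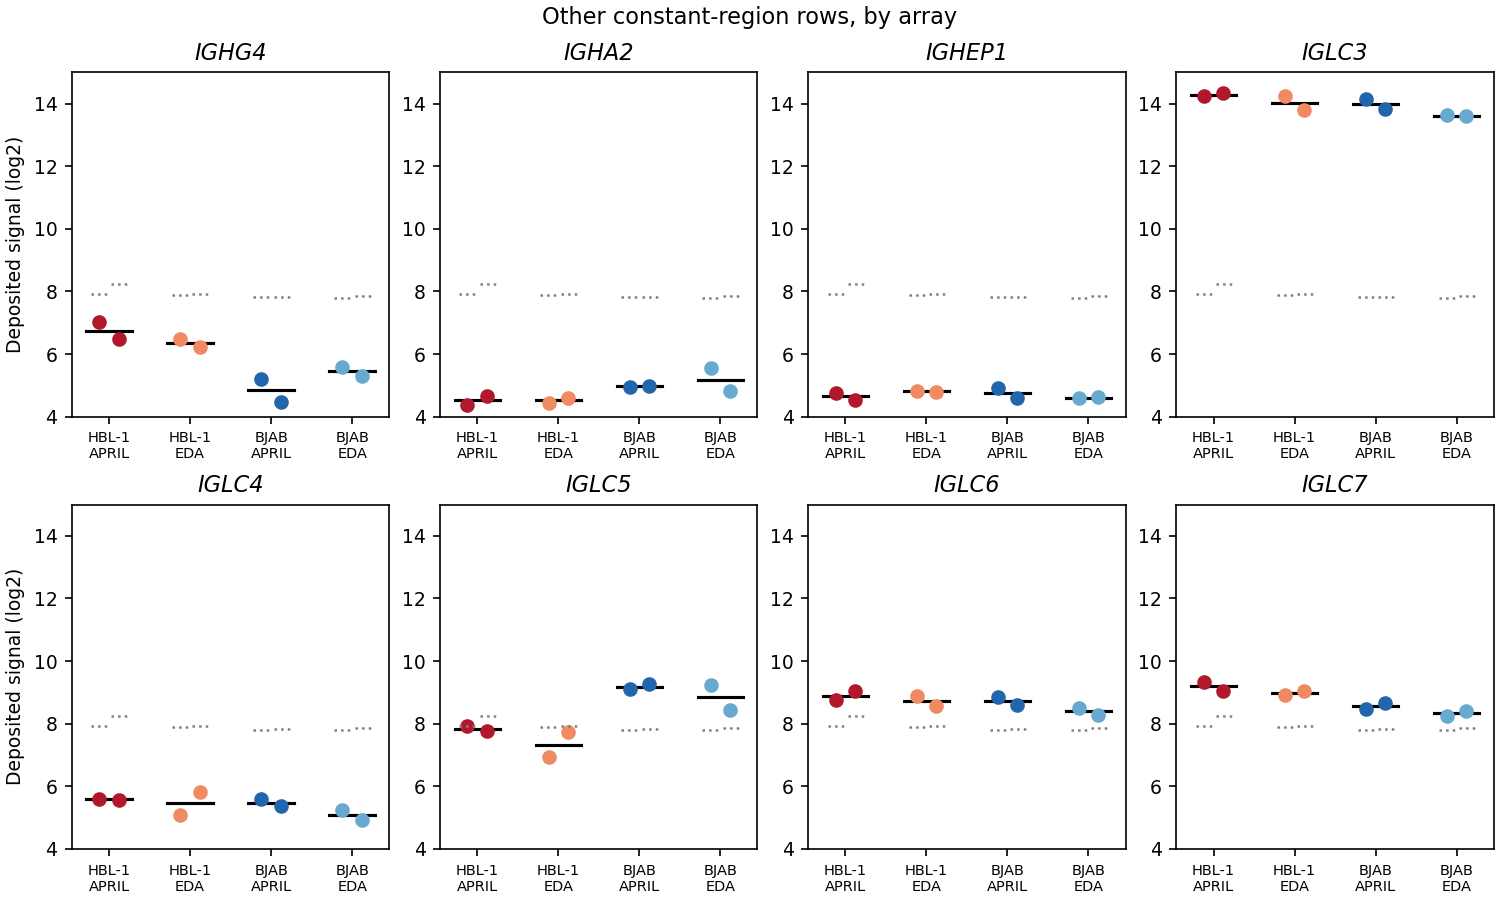
Deposited log2 signal (vertical axis) of the 8 other constant-region rows on the 8 arrays, with black lines for means of 2 arrays and dotted lines for the 95th percentile of the background control rows. IGLC3 lies near 14 in every group, IGLC5 is lower in HBL-1 than in BJAB, and IGHG4 is higher in HBL-1 but below the dotted lines.

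Of the 8 other constant-region rows, 1 passed as higher and 1 as lower in HBL-1 under APRIL, and 0 and 1 under EDA. Over all rows, 7.76% passed as higher and 8.36% as lower under APRIL, and 6.01% and 9.98% under EDA, so 1 row of 8 is near the share of all rows. Their median difference was 0.14 under APRIL, beside 0.05 over all rows, and 0.35 under EDA, beside -0.03 over all rows. Without HBL-1 APRIL replicate 2, 1 row was higher under APRIL and 0 were lower.

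The ligand comparison asked whether APRIL changed constant-region signal within 6 h. None of the 11 rows passed in HBL-1 or in BJAB, and limma called 0 of 36176 rows in either line (0% of all rows), with 3164 rows in HBL-1 and 1454 in BJAB at an unadjusted p under 0.05. In HBL-1 the log2 difference, APRIL minus EDA, was 0.37 for IGHD (95% confidence interval -0.16 to 0.90), -0.10 for IGHA1 (-0.87 to 0.67) and 0.15 for IGHE (-0.30 to 0.60). The median over all rows was 0.105 in HBL-1 and became 0.002 after another quantile normalization, so a difference of that size is also the middle of all rows. In IGHD the APRIL arrays did not overlap the EDA arrays and were higher, which held for 25.5% of all rows in HBL-1 (10.9% were lower, 36.4% either way). Without HBL-1 APRIL replicate 2 the IGHD difference was 0.10.

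IGHA1 had the largest ligand difference of the 11 rows in BJAB. Its log2 difference, APRIL minus EDA, was 0.98 (SE 0.34, 95% confidence interval 0.21 to 1.75), with an unadjusted p of 0.0173 and a limma adjusted p of 1. The APRIL and EDA arrays did not overlap, with APRIL higher, as in 17.2% of all rows in BJAB (16.9% were lower, 34.1% either way). Only 1 of the 2 APRIL arrays was above the background range, and both EDA arrays were within it. Neither level was thus above the range on both arrays of its group, and no fold is given. The difference stayed positive when single arrays were left out, at 0.57 to 1.40. In BJAB the difference was 0.07 for IGHD (-0.45 to 0.60) and 0.02 for IGHE (-0.43 to 0.46).

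For IGHA1, the APRIL response in HBL-1 minus that in BJAB was a log2 difference of -1.08 (95% confidence interval -2.17 to 0.005, unadjusted p = 0.051, limma adjusted p = 0.885), which did not pass. The same contrast was 0.30 for IGHD and 0.13 for IGHE. Averaged over both lines, with 4 arrays per ligand, APRIL minus EDA was 0.44 for IGHA1 (adjusted p = 0.765), 0.22 for IGHD (0.828) and 0.08 for IGHE (0.935). Limma called 0 rows in each of these comparisons (0%), with 2037 rows for the difference of responses and 2477 for the average at an unadjusted p under 0.05. Among the other constant-region rows, the smallest p-values were those of IGLC5 (0.51) and IGHG4 (0.39) in HBL-1, and of IGHG4 (-0.61) and IGLC3 (0.39) in BJAB. Of all 11 rows, 8 had a positive difference in HBL-1 and 9 in BJAB.

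**Figure D4:**
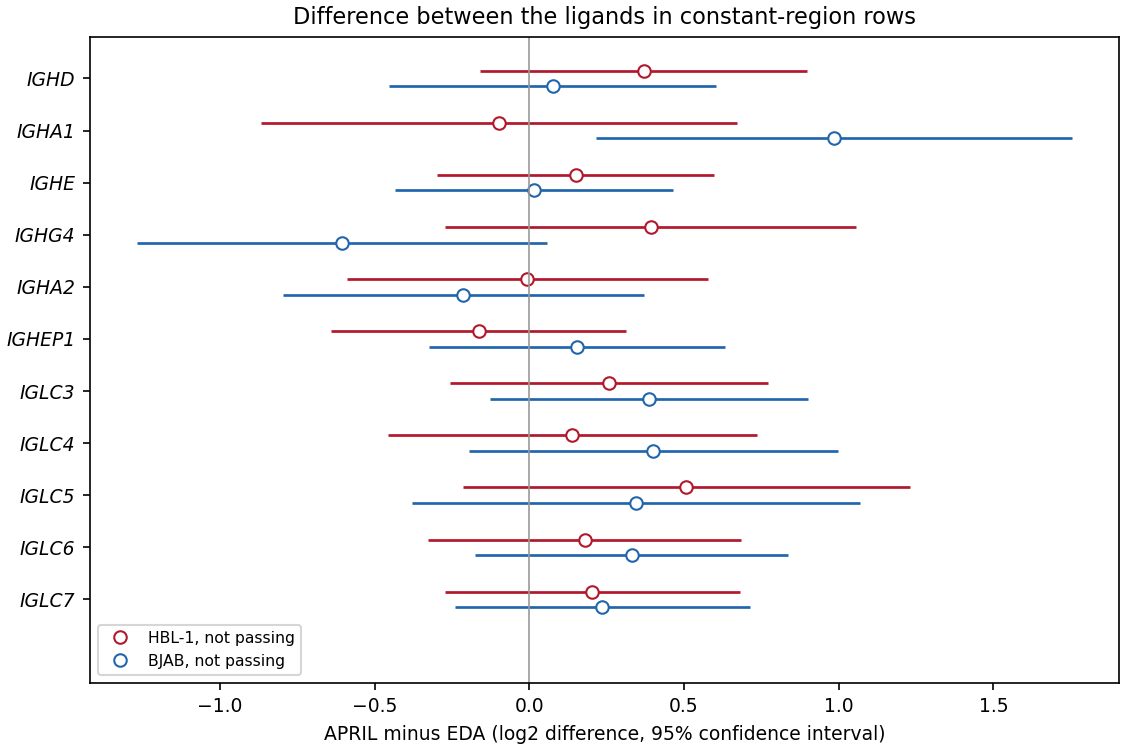
APRIL minus EDA in log2 units (horizontal axis) for the 11 constant-region rows in HBL-1 and in BJAB, with 95% confidence intervals. All points are open, since no row passed at a limma adjusted p under 0.05. IGHA1 in BJAB, at 0.98, lies farthest from 0.

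Genes that work with immunoglobulin chains differed between the lines in both directions. Among the 11 partner genes with a row, 2 passed as higher and 3 as lower in HBL-1 with each ligand, with a median difference of -0.001 under APRIL and 0.23 under EDA, beside 16.1% and 16.0% of all rows that passed in either direction and medians of 0.05 and -0.03 over all rows. JCHAIN, the joining chain of IgM and IgA polymers, had means of 7.79 and 6.86 in HBL-1 with APRIL and with EDA, within the background range, against 16.53 and 16.57 in BJAB. That is at least 348-fold lower in HBL-1 under APRIL and at least 404-fold lower under EDA (limma adjusted p = 1.44e-08 and 1.06e-08). MZB1, a chaperone of antibody assembly in the endoplasmic reticulum, was lower in HBL-1 by log2 differences of -2.42 under APRIL and -2.52 under EDA (adjusted p = 2.77e-05 and 1.98e-05). VPREB3, a relative of the surrogate light chain gene VPREB1, was within the background range in both lines (-2.12 and -2.15, adjusted p = 0.00168 and 0.00151).

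A pair of receptors for immunoglobulin were the partner genes higher in HBL-1. FCMR, the receptor for the constant part of IgM, had means of 9.99 and 9.95 in HBL-1 with APRIL and with EDA, against 4.86 in both BJAB groups, and was at least 4.51-fold higher in HBL-1 under APRIL and at least 4.37-fold under EDA. FCGR2B, the inhibitory receptor for IgG, was higher in HBL-1 by 1.45 under APRIL and 2.23 under EDA (limma adjusted p = 0.00533 and 0.000349). CD79A and CD79B did not pass, with differences of 0.50 and 0.20 under APRIL and 0.42 and 0.23 under EDA. For the ligand, 0 of the 11 partner genes passed in either line. JCHAIN had the smallest p in HBL-1 (0.93, adjusted p = 0.442), followed by PIGR (0.29), which carries polymeric antibody across epithelia. FCGR2B (1.01) and IGLL1 (0.55), a surrogate light chain of pre-B cells, had the smallest in BJAB (adjusted p = 1 for both). PIGR and IGLL1 lay within the background range on all 8 arrays, and JCHAIN did on every HBL-1 array.

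Class switching and hypermutation had 24 genes with a row. Under APRIL 6 passed as higher and 2 as lower in HBL-1, and under EDA 4 and 3 did, beside 7.76% and 8.36% of all rows under APRIL and 6.01% and 9.98% under EDA. Without HBL-1 APRIL replicate 2 the counts under APRIL were 4 and 3. BATF, a transcription factor needed for switching in mice, was at least 34.9-fold higher in HBL-1 under APRIL and at least 22.1-fold higher under EDA. HMCES, a DNA repair protein of abasic sites, was at least 19.9-fold lower in HBL-1 under APRIL and at least 30.9-fold lower under EDA. POLH, the polymerase behind many A and T mutations, was higher by 2.33 under APRIL and 2.05 under EDA. BACH2, a repressor of plasma-cell fate, was higher by 2.18 and 1.98 on a row within the background range in both lines, and its 5 rows differed in size, from -0.15 to 4.16 under APRIL. MSH6, a mismatch repair protein, had differences of -1.26 under APRIL and -1.70 under EDA, and its other row differed far more. The median difference was -0.07 under APRIL and -0.10 under EDA. For the ligand, 0 genes passed in either line, and the smallest p-values were those of BATF (0.66) and RIF1 (0.54), an end-protection factor, in HBL-1, and of PAXIP1 (-0.55) and XRCC4 (0.57) in BJAB.

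Regulators of immunoglobulin transcription had 21 genes with a row, of which 4 passed as higher and 5 as lower in HBL-1 under each ligand, beside 16.1% of all rows under APRIL and 16.0% under EDA in either direction. Their median difference was 0.22 under APRIL and 0.06 under EDA. IRF4, which drives plasma-cell differentiation and activates light-chain enhancers, was at least 108-fold higher in HBL-1 under APRIL and at least 92.9-fold higher under EDA. SPIB, a partner of IRF4 on light-chain enhancers, was higher by 1.87 under APRIL and 1.53 under EDA. SPI1, the related factor PU.1, had differences of -2.68 and -3.07, and TCF3, the factor E2A that binds E-box sites of these enhancers, had -1.45 and -2.11. POU2AF1, the octamer coactivator, did not pass (0.18 under APRIL and -0.02 under EDA), a gene named here after its values were seen. The ligand gave 0 calls in either line, with IRF8 (0.68) and TCF3 (0.67) at the smallest p-values in HBL-1 and IRF8 (0.51) and POU2F2 (0.33) in BJAB.

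Antibody secretion and plasma cells had 27 genes with a row. Under APRIL 8 passed as higher and 3 as lower in HBL-1, and under EDA 5 and 3 did, with medians of 0.22 and 0.12. Over all rows 7.76% and 8.36% passed under APRIL and 6.01% and 9.98% under EDA, with medians of 0.05 and -0.03. Without HBL-1 APRIL replicate 2, 5 were higher and 3 lower under APRIL. TENT5C, a poly(A) polymerase that stabilises immunoglobulin transcripts in mice, was at least 11.2-fold higher in HBL-1 under APRIL and at least 10.4-fold higher under EDA. TNFRSF17, the APRIL receptor BCMA, was at least 14.0-fold and at least 11.3-fold higher. PRDM1, the plasma-cell regulator Blimp-1, was higher by 3.15 and 2.51, and CD38, a surface enzyme of plasma cells and germinal-centre cells, was at least 4.32-fold and at least 4.06-fold lower. The ligand gave 0 calls in either line. The smallest p-values in HBL-1 were those of CD38 (0.66) and ELL2 (0.55), an elongation factor that favours secretory heavy-chain RNA. In BJAB they were those of HNRNPF (-0.72), a splicing factor, and HSP90B1 (-0.50). CD38 in HBL-1 and HSP90B1 in BJAB lay within the background range on every array.

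**Figure D5:**
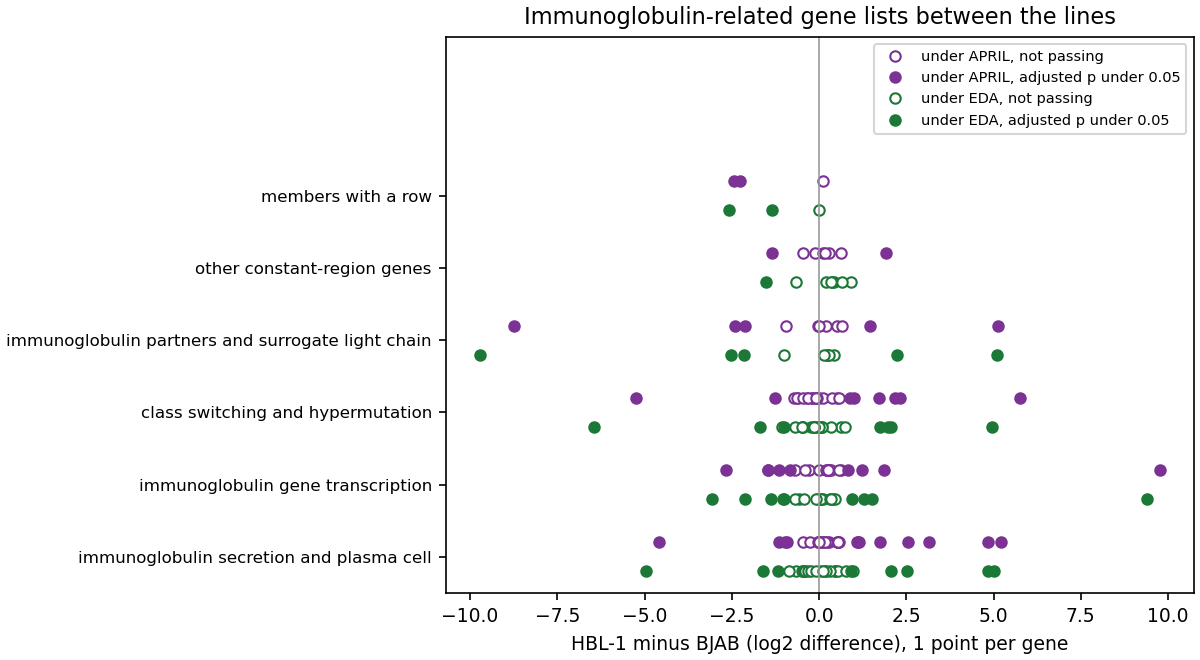
HBL-1 minus BJAB in log2 units (horizontal axis) for each measured gene of the constant-region set and of 4 lists of genes that work with immunoglobulin, under APRIL and under EDA. Filled points passed at a limma adjusted p under 0.05. JCHAIN is the point near -9, IRF4 the point beyond 9, and the 4 lists hold filled points on both sides of 0.

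Markers of other cells were set beside these line differences. Of the 9 T-cell and NK-cell markers, 2 were lower in HBL-1 under APRIL (CD3G and CD3D) and 3 under EDA (CD3G, CD3D and CD3E), and none was higher. Their summed log2 level was 42.2 to 44.6 on the HBL-1 arrays and 51.9 to 53.8 on the BJAB arrays. CD3G had means of 5.31 and 4.94 in HBL-1 with APRIL and with EDA, against 11.65 and 11.20 in BJAB, and was at least 11.8-fold lower in HBL-1 under APRIL and at least 9.77-fold lower under EDA. CD3D was within the background range on all 8 arrays (-1.76 and -1.70), and its call was lost without HBL-1 APRIL replicate 1 (-1.69, adjusted p = 0.062) or BJAB APRIL replicate 1 (-1.25, adjusted p = 0.0803) under APRIL. Under EDA it was lost without HBL-1 EDA replicate 1, HBL-1 EDA replicate 2 or BJAB EDA replicate 2 (limma adjusted p = 0.0529, 0.0622 and 0.0973). CD3E was at least 1.14-fold lower in HBL-1 under EDA, and its call was lost without HBL-1 EDA replicate 2 (adjusted p = 0.0563). On BJAB EDA replicate 1 the CD3E value of 7.99 lay below the 95th percentile of the negative control rows of that array (8.32). CD2, CD8A and CD4 were within the background range in both lines. On the brightest row of each gene, 0 of the 9 myeloid markers passed between the lines with limma, and 0 had an unadjusted p under 0.05. The other row of ITGAM, an integrin of myeloid cells, passed as lower in HBL-1, with differences of -1.84 under APRIL and -1.71 under EDA (limma adjusted p = 0.00128 and 0.00207). Its HBL-1 levels were within the background range, as was 1 of the 2 BJAB arrays with each ligand, so no fold is given. The summed level of the 9 was 45.9 to 49.0 in HBL-1 and 46.5 to 47.8 in BJAB. Of the 8 B-cell markers, MS4A1, the surface antigen CD20, was lower in HBL-1 (-2.49 under APRIL and -2.75 under EDA) and the kinase gene BLK was higher (1.37 and 1.04). The BLK call under EDA was lost in 5 of 19 alternatives (adjusted p = 0.0619 to 0.146), among them leaving out HBL-1 EDA replicate 1, BJAB EDA replicate 1 or BJAB EDA replicate 2. The 8 B-cell markers had summed levels of 102.6 to 105.1 in HBL-1 and 104.1 to 105.0 in BJAB. The part of any other cell type in the constant-region differences was not tested.

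Likeness of pattern was measured over the 8 arrays as the root mean square distance between rows, each centred on its own mean, among 32058 genes. The rows nearest to IGHD were those of VNN2 (0.11), ING2 (0.11) and ARPP21 (0.11). VNN2 had means of 9.31 and 8.78 in HBL-1 with APRIL and with EDA, against 11.58 and 11.55 in BJAB. The rows nearest to IGHA1 were farther away, at 0.25 for VLDLR-AS1, 0.30 for TMEM132B and 0.31 for CYCSP55. Group means of VLDLR-AS1 (3.44 to 5.43) and TMEM132B (5.17 to 7.18) lay within the background range. Those of CYCSP55 ran from 6.68 to 8.60. These distances describe 8 arrays of 2 lines and were not tested.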

How the data were processed

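Per the submitters' processing notes, the deposited log2 values were made by the authors with RMA in Affymetrix Expression Console, with no versions given. They ran from 2.36 to 19.38, taken as a log2 scale. RMA makes arrays comparable by forcing like distributions, which can shrink differences near background. The genome build is not given in the sources used here. The platform annotation pairs 36176 rows with 1 symbol, 1119 with several and 101450 with none. A linear model with a mean for each of the 4 groups was run on these 36176 rows in limma 3.58.1 (R 4.3.3; lmFit, eBayes). P-values are two-sided, adjusted by Benjamini-Hochberg over these rows, with a threshold of 0.05. The median standard error within a line was 0.25, and the number of arrays limits precision. The code was tested on simulated data. There most 4-fold ligand changes within a line were called. Nearly all 2-fold ligand changes within a line and nearly all differences of response went uncalled. An absence of ligand calls therefore does not show that signal was unchanged.

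The members and lists were chosen with earlier results of these data known. List genes were read on their brightest row. All member rows were named, then up to 4 passing genes per list and comparison with the smallest p, or 2 where none passed, then the 3 nearest rows by pattern. The 8 other constant-region rows were all described after 6 members proved to have no row. Same-numbered arrays did not deviate together (correlations of -0.02 to 0.06), so no block was used.

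A level within the background range gives only a bound: the bright mean against the dim mean raised to that range. The bounds depend on this choice of range. The 95th percentile of the negative control rows was higher on every array, and bounds set against it would be smaller.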

Additional observations from a re-analysis of the deposited data

How the results depend on the processing

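The line difference of IGHD kept its direction and its call under all 19 alternatives, at -2.55 to -2.00 under APRIL and -2.71 to -2.39 under EDA. For IGHA1 the call under APRIL was kept under all 18 alternatives that gave a value, and the call under EDA was lost when all rows that are not controls were tested (-1.36, adjusted p = 0.0704) and without single arrays (-1.77 to -0.95 over the 8 arrays left out). IGHA1 and IGHE gave no value when only rows above the background range were tested. Another quantile normalization moved the IGHD level to 7.42 in HBL-1 with EDA and to 9.86 in BJAB with APRIL. The count of rows called in HBL-1 for the ligand was 1 with only the brightest row of each gene and 1 with the mean of all rows of a gene, in both cases SEC16B (2.02, limma adjusted p = 0.0491 and 0.0448). For the lines under EDA it was 3801 to 6082 over the arrays left out, lowest without BJAB EDA replicate 1. After another quantile normalization MS4A1 in HBL-1 turned to -0.029. Leaving out single arrays turned the sign of some differences that had not passed, with ranges of -0.29 to 0.10 for IGHA1 between ligands in HBL-1, -0.057 to 0.21 for IGHD and -0.087 to 0.12 for IGHE in BJAB, -0.12 to 0.087 for IGHE between lines under EDA, and, between lines under APRIL, -0.27 to 0.05 for IGHEP1, -0.008 to 0.23 for IGLC4, -0.01 to 0.854 for CD163 and -0.629 to 0.032 for S100A8. The cause was not tested. Of 111 differences of single genes, 91 kept their direction and side of the threshold under every alternative. With a replicate block 5657 rows were called between lines under APRIL and 5536 under EDA, and the block changed no call of the 3 members. Each member has 1 row, so no other choice of row could be tried for the balance.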

Other observations

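The 2 rows of MSH6 disagreed in size. The row with the higher mean over all arrays was used in the list. It had means of 11.06 and 10.89 in HBL-1 with APRIL and with EDA, against 12.32 and 12.59 in BJAB. The other row had 4.15 and 4.20 in HBL-1, within the background range. In BJAB it had 13.90 and 13.78, and was the brighter of the 2 there. Its log2 difference was -9.76 under APRIL and -9.57 under EDA (limma adjusted p = 1.26e-08 and 1.32e-08). Against the background range this other row was at least 56.2-fold lower in HBL-1 under APRIL and at least 58.4-fold lower under EDA. This row was chosen after its values were seen.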
